A study of Mus musculus with 24 samples.

Results

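Transcripts of 7 genes that bind or move zinc and related metals were followed in 24 microarrays of mouse brain: the metallothioneins Mt1, Mt2 and Mt3, the zinc exporter family members Slc30a1, Slc30a3 and Slc30a10, and the importer Slc39a14. The genes were chosen by symbol in the platform annotation, where 7 of 19505 symbols were members and each had 1 row. Cerebral cortex, hippocampus and cerebellum had been taken from 4 wild-type (WT) animals and from 4 animals whose glutamine synthetase was knocked out in the liver alone (KO), which gave 6 groups of 4 arrays. Liver glutamine synthetase binds ammonia into glutamine, and the series title gives the question as how hyperammonemia alters the brain. Neither strain, age and sex nor the driver of the liver deletion nor blood ammonia is stated in the labels. Brain cells of the KO animals keep their own glutamine synthetase by that design, and the row of the targeted gene was not analysed here. Animals are called WT 1 to WT 4 and KO 1 to KO 4 after the numbers in the labels, and values are the deposited ones on a log2 scale, on which a difference of 1 is a 2-fold change.

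Metallothioneins are small, cysteine-rich proteins that hold zinc and copper and take part in buffering them. Mt1 and Mt2 are made in most tissues, in the brain mainly by astrocytes, and their transcription rises with metals, glucocorticoids and oxidative stress. The zinc sensor MTF1 binds metal response elements in their promoters. Mt3 is a form largely restricted to the nervous system. Proteins of the Slc30 (ZnT) family carry zinc out of the cytosol, either out of the cell or into vesicles, and those of the Slc39 (ZIP) family carry metals into the cytosol. Slc30a10 and Slc39a14 also carry manganese, which collects in the brain when the liver fails to clear it.

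The tissue labels were set against marker genes before the members were read. The mean of 10 cerebellar granule and Purkinje cell markers lay between 14.26 and 15.95 on cerebellar arrays and between 8.93 and 9.30 on all others. Markers of forebrain excitatory neurons (9 genes) lay between 11.68 and 12.70 on cortical and hippocampal arrays and between 9.20 and 9.91 on cerebellar arrays. By the olfactory bulb, brainstem and array range measures given next, 4 arrays stood apart. Cortex KO 1 and KO 4 had means of 11.60 and 10.96 over 13 of 14 olfactory bulb markers, against 7.91 to 8.42 on the other 6 cortical arrays, and forebrain excitatory markers of 11.68 and 12.15 against 12.27 to 12.70. Cerebellum KO 3 had a mean of 8.46 over 12 of 15 brainstem markers (6.99 to 7.46 on 6 others), 14.00 over 7 oligodendrocyte markers (11.91 to 12.47) and 14.26 over the granule and Purkinje markers (15.69 to 15.95). Cerebellum WT 2 had a compressed upper range: its highest value was 17.91, against 18.8 or more on each of the others, and its 100 brightest rows lay 0.43 below their group means in the median. Its choroid plexus markers averaged 10.92, and this list also varied among hippocampal arrays, from 8.53 to 11.58.

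Mt1 and Mt2 are neighbours on chromosome 8, next to Mt3 in the order of coding genes. Their promoter windows in the RefSeq table (build GRCm38.p6, 250 bases before to 50 after the annotated start, plus strand) are shown because the results below turn on this pair. They lie at chr8:94178839-94179138 for Mt1 and chr8:94172368-94172667 for Mt2. Capitals mark matches to the metal response element core, searched on both strands as TGCACNC and TGCGCNC, with N any base.
Mt1: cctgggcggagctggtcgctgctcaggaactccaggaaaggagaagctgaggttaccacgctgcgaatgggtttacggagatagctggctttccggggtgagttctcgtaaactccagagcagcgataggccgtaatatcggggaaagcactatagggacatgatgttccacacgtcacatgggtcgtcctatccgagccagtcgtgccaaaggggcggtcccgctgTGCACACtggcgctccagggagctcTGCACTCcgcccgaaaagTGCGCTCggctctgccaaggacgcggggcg
Mt2: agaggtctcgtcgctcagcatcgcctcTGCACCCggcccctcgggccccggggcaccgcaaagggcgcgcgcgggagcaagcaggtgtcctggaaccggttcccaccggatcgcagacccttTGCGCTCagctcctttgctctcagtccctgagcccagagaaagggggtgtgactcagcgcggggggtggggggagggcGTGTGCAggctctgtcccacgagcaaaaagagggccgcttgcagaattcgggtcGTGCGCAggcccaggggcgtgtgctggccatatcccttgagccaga
The Mt1 window held 3 matches, all on the plus strand, at window bases 228, 253 and 271. The Mt2 window held 4, at bases 28 and 123 on the plus strand and at 201 and 255 on the minus strand. Of 32851 windows of this length in the table, 25.7% held at least 1 match, 1.97% at least 3 and 0.52% at least 4. The matches are letters in these windows, not measured binding, and other start sites were not searched.

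Mt1 differed little between arrays of a region, with 1 exception in the cerebellum. In the cortex it was 17.17, 17.21, 16.89 and 17.43 in WT 1 to WT 4 and 17.14, 17.16, 17.08 and 17.03 in KO 1 to KO 4. In the hippocampus it was 17.58, 17.33, 17.52 and 17.52 in WT and 17.52, 17.62, 17.61 and 17.50 in KO. All KO hippocampi were above all KO cortices, while the WT regions overlapped through cortex WT 4 and hippocampus WT 2. In the cerebellum Mt1 was 17.57, 16.66, 17.53 and 17.50 in WT and 17.35, 17.66, 17.74 and 17.79 in KO. Cerebellum WT 2 was the lowest of the 24 arrays for Mt1, and it is the array whose brightest rows were low as a whole. All these values exceed 16, the top of a 16-bit reading on a log2 scale. The labels do not say how they arose, and saturation could not be judged.

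Mt2 was likewise lowest in the cortex, and its values were more spread. In the cortex it was 16.53, 16.46, 15.92 and 17.01 in WT and 16.36, 16.52, 16.46 and 16.003 in KO. In the hippocampus it was 16.81, 16.56, 16.70 and 17.03 in WT and 16.79, 16.97, 17.13 and 16.92 in KO. The KO hippocampi again stood above every KO cortex, and the WT groups overlapped. In the cerebellum Mt2 was 17.23, 16.53, 17.16 and 17.35 in WT and 17.11, 17.49, 17.45 and 17.57 in KO. Cerebellum WT 2 was again the lowest of its region.

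**Figure D1:**
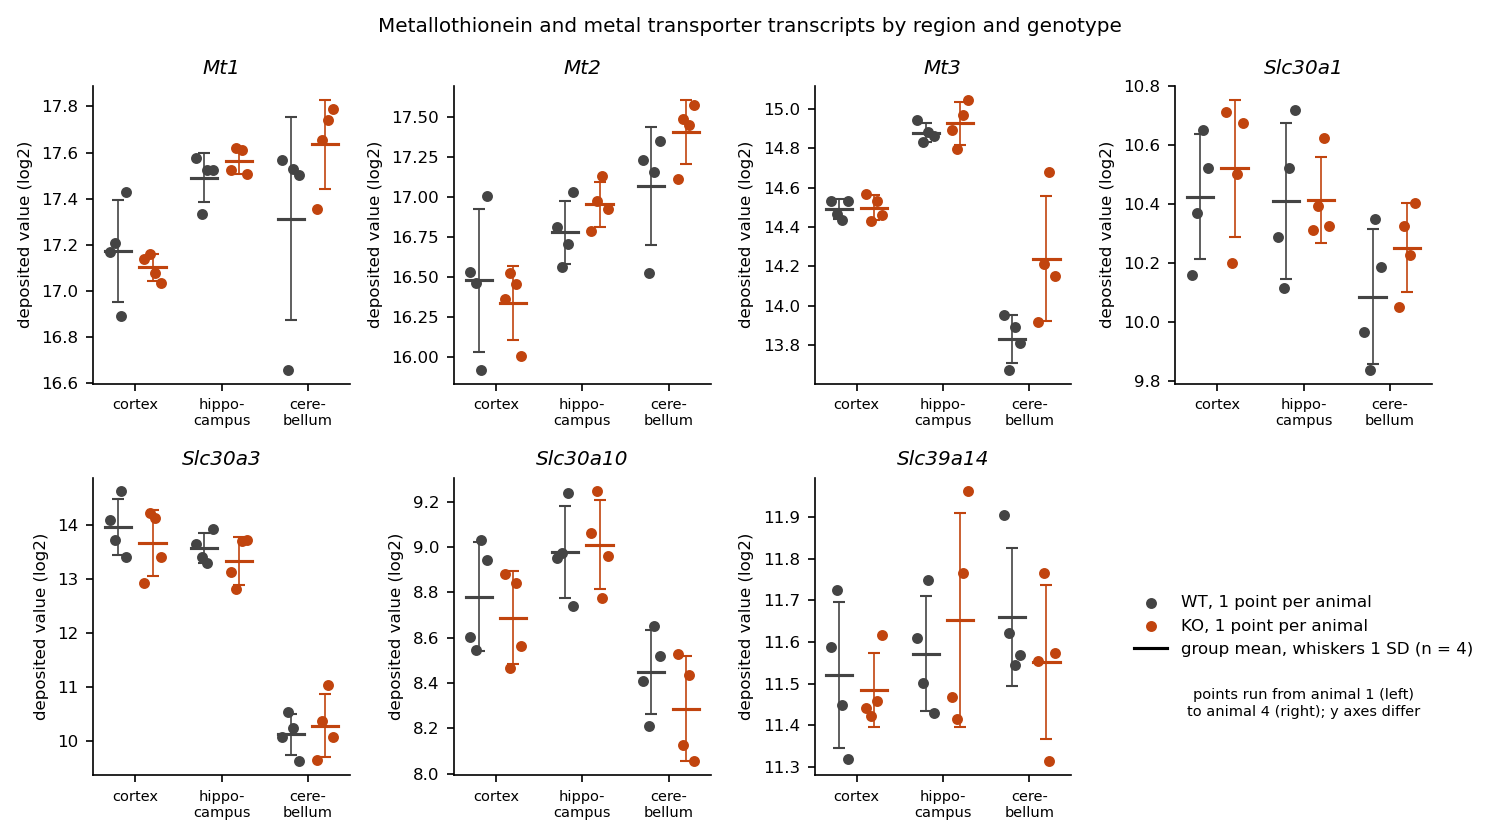
Deposited log2 values of the 7 genes (y axes, which differ between panels) in cortex, hippocampus and cerebellum (x axis), with 1 point per animal, WT in grey and KO in orange, a line at the group mean and whiskers of 1 SD (n = 4). The cerebellar values of Slc30a3 and, in WT, of Mt3 lie below those of both other regions, and cerebellum WT 2 lies at 16.66 for Mt1, below the other WT cerebella.

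The order of regions for this pair was cortex lowest, with hippocampus and cerebellum above it, and the cerebellum highest for Mt2. Mt2 was higher in the cerebellum than in the cortex by 0.59 in WT (SE 0.18, limma adjusted p = 0.0135) and by 1.07 in KO (SE 0.18, adjusted p = 5.1e-05). Without cortex WT 3 the WT difference in Mt2 was 0.40 (adjusted p = 0.0895), and without cerebellum WT 4 it was 0.49 (adjusted p = 0.0598), so this call rests on those arrays. Mt2 was also higher in the hippocampus than in the cortex of KO animals, by 0.62 (SE 0.18, adjusted p = 0.0411), a call that held in only 1 of 8 fits with 1 array of these groups left out. Those fits gave Mt2 adjusted p-values from 0.0505 without hippocampus KO 1 to 0.161 without cortex KO 4 in the cases that missed. Without cortex KO 1, cortex KO 4 and cerebellum KO 3 the difference was 0.46 (adjusted p = 0.242). The hippocampus-cortex difference in Mt2 was 0.30 in WT (adjusted p = 0.371). Between cerebellum and hippocampus Mt2 differed by 0.29 in WT (adjusted p = 0.254) and by 0.45 in KO (adjusted p = 0.0649). That WT value became 0.47 (adjusted p = 0.047) without cerebellum WT 2, and the KO value 0.55 (adjusted p = 0.0391) without cerebellum KO 1.

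Mt1 was higher in the cerebellum than in the cortex of KO animals by 0.53 (SE 0.15, adjusted p = 0.00731), and by 0.48 (adjusted p = 0.0709) without cortex KO 1, cortex KO 4 and cerebellum KO 3. In WT that difference was 0.14 (adjusted p = 0.532), and 0.36 (adjusted p = 0.016) without cerebellum WT 2. The hippocampus exceeded the cortex in Mt1 by 0.32 in WT (adjusted p = 0.228) and by 0.46 in KO (adjusted p = 0.0658), neither past the threshold. The KO value of Mt1 passed with quantile normalization (0.42, adjusted p = 0.0118), with array weights (0.47, adjusted p = 0.0196) and without cerebellum WT 2 and KO 3 (0.46, adjusted p = 0.00559). That last alternative was chosen after seeing the data. Hippocampus and cerebellum, neighbours in the order, did not differ beyond their spread, at -0.18 in WT (adjusted p = 0.411) and 0.07 in KO (adjusted p = 0.783) for cerebellum minus hippocampus. Astrocyte markers (10 genes) ranged likewise, at 12.43 to 12.84 in the cortex, 12.79 to 13.05 in the hippocampus and 12.84 to 13.25 in the cerebellum, and their part in the Mt1 and Mt2 levels was not tested. In bulk tissue, fewer cells of a type and less RNA per cell cannot be told apart.

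Mt3 varied little within cortex and hippocampus and was highest in the hippocampus. In the cortex it was 14.54, 14.47, 14.43 and 14.53 in WT and 14.57, 14.43, 14.53 and 14.46 in KO. In the hippocampus it was 14.94, 14.83, 14.88 and 14.86 in WT and 14.89, 14.80, 14.97 and 15.05 in KO. Every hippocampal value was above every cortical one. In the cerebellum Mt3 was 13.95, 13.67, 13.89 and 13.81 in WT and 13.92, 14.21, 14.68 and 14.15 in KO. The WT cerebella were below all cortices, whereas cerebellum KO 3, the array with high brainstem and oligodendrocyte markers, was above them.

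For Mt3 the order hippocampus, cortex, cerebellum was the same in both genotypes. The cerebellum was lower than the hippocampus by 1.05 in WT and by 0.69 in KO, as the fitted differences of -1.05 (SE 0.11, adjusted p = 4.27e-08) and -0.69 (SE 0.11, adjusted p = 3.2e-05) show. Against the cortex, cerebellar Mt3 differed by -0.66 in WT (SE 0.11, adjusted p = 4.18e-05) and by -0.26 in KO (SE 0.11, adjusted p = 0.0887). That KO difference was -0.40 (adjusted p = 0.00191) without cerebellum KO 3. The hippocampus was higher than the cortex by 0.39 in WT (SE 0.11, adjusted p = 0.0376) and by 0.43 in KO (SE 0.11, adjusted p = 0.0194). Although these groups did not overlap, the WT call for Mt3 was lost whichever of its 8 arrays was left out, with adjusted p from 0.0559 to 0.102. The KO call was lost without cortex KO 2, cortex KO 4, hippocampus KO 3 or hippocampus KO 4, with adjusted p from 0.0555 to 0.0638. The spread in these tests is shared by all 6 groups and includes the wide cerebellar KO group of Mt3 (SD 0.32, against 0.05 to 0.12 in the other 5).

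Slc30a3 encodes ZnT3, which loads zinc into synaptic vesicles of forebrain glutamatergic neurons, among them hippocampal mossy fibres, and it gave the widest regional contrast. In the cortex it was 14.08, 13.72, 14.62 and 13.39 in WT and 12.93, 14.21, 14.12 and 13.41 in KO. In the hippocampus it was 13.64, 13.40, 13.29 and 13.92 in WT and 13.12, 12.80, 13.69 and 13.71 in KO. Cortex and hippocampus overlapped, and cortex KO 1, the array highest in olfactory bulb markers, was the lowest cortical value. In the cerebellum Slc30a3 was 10.08, 10.53, 10.24 and 9.62 in WT and 9.65, 10.36, 11.04 and 10.07 in KO. Every cerebellar array was below every forebrain array, and cerebellum KO 3 was the highest of the 8.

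The cerebellum differed from the cortex in Slc30a3 by -3.84 in WT (SE 0.30, adjusted p = 1.11e-10) and by -3.39 in KO (SE 0.30, adjusted p = 1.65e-09). Against the hippocampus the differences were -3.45 in WT (adjusted p = 7.62e-10) and -3.05 in KO (adjusted p = 9.1e-09). Hippocampus and cortex did not differ beyond their spread, at -0.39 in WT (adjusted p = 0.495, 95% interval -1.01 to 0.22) and -0.34 in KO (adjusted p = 0.617). Forebrain excitatory markers fell along with Slc30a3 from forebrain to cerebellum, as given above, and their part in this gap was not tested.

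Slc30a1 encodes ZnT1, the zinc exporter of the plasma membrane, and is itself a known target of MTF1. Its promoter window, at chr1:191906531-191906830 on the plus strand of GRCm38.p6, is shown for comparison with the metallothionein pair, with the same motif in capitals.
Slc30a1: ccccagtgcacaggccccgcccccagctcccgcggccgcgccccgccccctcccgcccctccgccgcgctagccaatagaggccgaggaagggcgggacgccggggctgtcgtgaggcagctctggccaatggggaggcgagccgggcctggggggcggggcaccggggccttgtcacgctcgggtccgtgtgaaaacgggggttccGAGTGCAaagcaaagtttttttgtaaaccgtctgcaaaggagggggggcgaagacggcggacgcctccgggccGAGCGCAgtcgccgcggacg
It held 2 matches, both on the minus strand, at bases 208 and 281. At least 2 were held by 7.1% of all windows. The Mt3 window held 1 match. Those of Slc30a3 held 1 and 0 (2 annotated starts), and that of Slc30a10 held 3, of which 2 overlapped. Slc39a14 is named only.

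Slc30a1 was 10.16, 10.37, 10.65 and 10.52 in WT cortex, 10.29, 10.12, 10.52 and 10.72 in WT hippocampus and 9.97, 9.84, 10.35 and 10.19 in WT cerebellum. KO values were 10.71, 10.20, 10.50 and 10.67 in cortex, 10.31, 10.39, 10.63 and 10.33 in hippocampus and 10.05, 10.33, 10.23 and 10.41 in cerebellum. The highest hippocampal values were those of WT 3, WT 4 and KO 3, the hippocampi high in striatum markers. The part of striatal tissue was not tested. The cerebellum had the lowest group means in both genotypes, and the groups overlapped in every comparison. The WT cerebellum differed from the cortex in Slc30a1 by -0.34 (SE 0.14, adjusted p = 0.0699) and from the hippocampus by -0.32 (SE 0.14, adjusted p = 0.0848). Both differences passed the threshold without cerebellum WT 3, at -0.43 (adjusted p = 0.0315) and -0.41 (adjusted p = 0.0388). The first also passed without cortex WT 1 (-0.43, adjusted p = 0.0311) and the second without hippocampus WT 2 (-0.42, adjusted p = 0.0324). In KO the cerebellum differed by -0.27 from the cortex (adjusted p = 0.168) and by -0.16 from the hippocampus (adjusted p = 0.453), and neither Slc30a1 difference passed in any of 8 fits with 1 array left out (lowest adjusted p 0.0599 and 0.364). With the animal as a fixed block, Slc30a1 passed in WT, with adjusted p of 0.0374 against cortex and 0.0475 against hippocampus.

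Slc30a10 carries manganese out of cells, and its loss in people causes manganese to collect in the brain. In the cortex it was 8.60, 8.55, 9.03 and 8.94 in WT and 8.88, 8.47, 8.84 and 8.56 in KO. In the hippocampus it was 8.95, 8.97, 9.24 and 8.74 in WT and 9.06, 9.25, 8.77 and 8.96 in KO. In the cerebellum it was 8.41, 8.21, 8.65 and 8.52 in WT and 8.53, 8.13, 8.43 and 8.05 in KO. All cerebella were below all hippocampi, and the cortex overlapped with both. These levels lie close to the array medians, which ran from 8.72 to 8.82, so signal over background is a limit for Slc30a10 that could not be judged here.

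Cerebellar Slc30a10 differed from hippocampal by -0.53 in WT (SE 0.14, adjusted p = 0.00501) and by -0.73 in KO (SE 0.14, adjusted p = 0.000288). Against the cortex the KO cerebellum differed by -0.40 (adjusted p = 0.0337) and the WT cerebellum by -0.33 (adjusted p = 0.0762). The KO call for Slc30a10 was lost without cortex KO 1, cortex KO 3, cerebellum KO 2 or cerebellum KO 4, with adjusted p from 0.0999 to 0.121. The WT difference passed without cortex WT 2 (-0.41, adjusted p = 0.0417) or without cerebellum WT 3 (-0.40, adjusted p = 0.0499). Hippocampus and cortex did not differ beyond their spread in Slc30a10, at 0.20 in WT (adjusted p = 0.477) and 0.32 in KO (adjusted p = 0.218).

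Slc39a14 (ZIP14) takes up manganese, zinc and iron, and it was the most even of the 7 across regions. It ranged from 11.32 to 11.72 in the cortex, from 11.42 to 11.96 in the hippocampus and from 11.31 to 11.90 in the cerebellum, with both genotypes pooled. The highest value was that of hippocampus KO 4 and the lowest that of cerebellum KO 3. Its 6 regional differences lay between -0.10 (cerebellum minus hippocampus in KO) and 0.17 (hippocampus minus cortex in KO), and none passed the threshold. The 95% interval of the widest of them ran from -0.09 to 0.43.

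**Figure D2:**
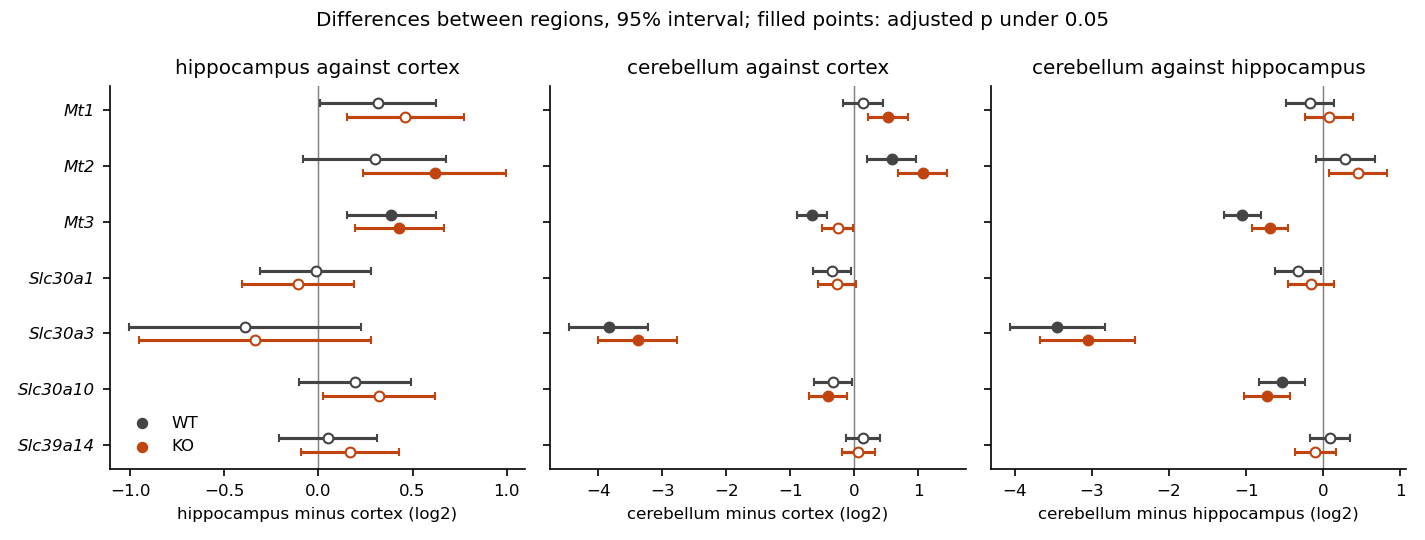
Fitted differences between regions (x axes, log2) for the 7 genes (y axis) in WT (grey) and KO (orange), with 95% intervals; filled points have an adjusted p under 0.05 and open ones do not. Slc30a3 lies at -3.84 to -3.05 in the comparisons with the cerebellum, and Slc39a14 lies near 0 in all of them.

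Counted over the members, differences between hippocampus and cortex passed for 1 of 7 in WT, where 7.09% of all 19572 tested rows passed, and for 2 of 7 in KO, where 6.86% did. Between cerebellum and cortex 3 of 7 passed in WT, beside 35.8% of all rows, and 4 of 7 in KO, beside 32.1%. Between cerebellum and hippocampus 3 of 7 passed in WT, beside 34.9% of all rows, and 3 of 7 in KO, beside 31.3%. The comparisons within a genotype share arrays in pairs. The members' median difference was -0.33 for cerebellum minus cortex in WT and -0.26 in KO, where the medians over all rows were -0.02 and -0.01.

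The comparison of KO with WT asks whether loss of the liver enzyme alters these transcripts in the brain. No member passed in any region: 0 of 7 in cortex, in hippocampus and in cerebellum, in each of which 0% of all tested rows passed in limma after Benjamini-Hochberg adjustment. The 21 differences ran from -0.29 for Slc30a3 in the cortex to 0.41 for Mt3 in the cerebellum, with adjusted p from 0.435 to 1. Their 95% intervals reached from -0.91 to 0.78 at the widest, so changes of under about 2-fold remain within the error for Slc30a3. At an unadjusted p under 0.05, 0 of 7 members were counted in the cortex (7.45% of all rows), 0 of 7 in the hippocampus (2.11%) and 2 of 7 in the cerebellum (9.5%). Members higher in KO numbered 2 of 7 in the cortex, 6 of 7 in the hippocampus and 5 of 7 in the cerebellum. Of all 19572 rows, 9218, 10284 and 9620 were higher in KO, in that order. The 2 genotypes overlapped for each member in each region, and how many of all rows overlapped was not counted.

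The metallothioneins in the cerebellum gave the largest of these values relative to their error. Mt3 was 13.83 ± 0.12 in WT and 14.24 ± 0.32 in KO (SD, n = 4), a difference of 0.41 (SE 0.11, limma adjusted p = 0.435). That is the smallest adjusted p of the comparison, but rows of different unadjusted p can share it, so it gives Mt3 no rank. Of the 4 KO cerebella 3 were above all WT cerebella for Mt3, and KO 1 lay among them. An exact 2-sided permutation test gave p = 0.0571 for Mt3, where 4 against 4 arrays can go no lower than 0.0286, and 0.8 after adjustment over the 21 differences. Without cerebellum KO 3 the difference in Mt3 was 0.26 (adjusted p = 0.999), and without cerebellum KO 1 it was 0.51. Without both WT 2 and KO 3, an alternative chosen after seeing the data, the difference in Mt3 was 0.21.

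Mt1 in the cerebellum was 17.31 ± 0.44 in WT and 17.64 ± 0.19 in KO (SD, n = 4), a difference of 0.32 (SE 0.15, limma adjusted p = 0.517). For Mt2 the means were 17.07 ± 0.37 and 17.41 ± 0.20, a difference of 0.34 (SE 0.19, limma adjusted p = 0.559). Of the KO cerebella 3 exceeded every WT cerebellum for either gene, and KO 1 did not. Both differences shrank when cerebellum WT 2 was left out, to 0.10 for Mt1 and 0.16 for Mt2. Both grew when cerebellum KO 1 was left out, to 0.41 for Mt1 and 0.44 for Mt2. With quantile normalization across arrays they were 0.14 for Mt1 and 0.18 for Mt2, and WT 2 then read 17.39 for Mt1, beside a lowest value of 17.49 in the other WT cerebella. Mt3 kept 0.33 under that normalization. Marker lists moved both ways. The mean of 7 brain endothelium markers was 11.72 to 11.81 in WT and 11.86 to 12.42 in KO cerebella, without overlap and highest in KO 3. Choroid plexus markers (11 genes) averaged 9.66 in WT and 8.95 in KO cerebella. They ran from 8.42 to 10.92 in WT, and in KO they were 10.62 in KO 3 and 8.36 to 8.40 in the others. Granule and Purkinje markers (10 genes) averaged 15.75 in WT and 15.38 in KO. Those ran from 15.35 to 15.95 in WT, and in KO they were 14.26 in KO 3 and 15.69 to 15.84 in the others. Markers of meninges and fibroblasts (8 genes) averaged 10.07 in both. The 10 astrocyte markers averaged 12.95 ± 0.08 in WT and 13.10 ± 0.11 in KO (SD, n = 4), and 6 microglia markers ran from 9.01 to 9.27 in WT and from 9.20 to 10.06 in KO, both lists with overlap. The part of these cells in the metallothionein differences was not tested.

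**Figure D3:**
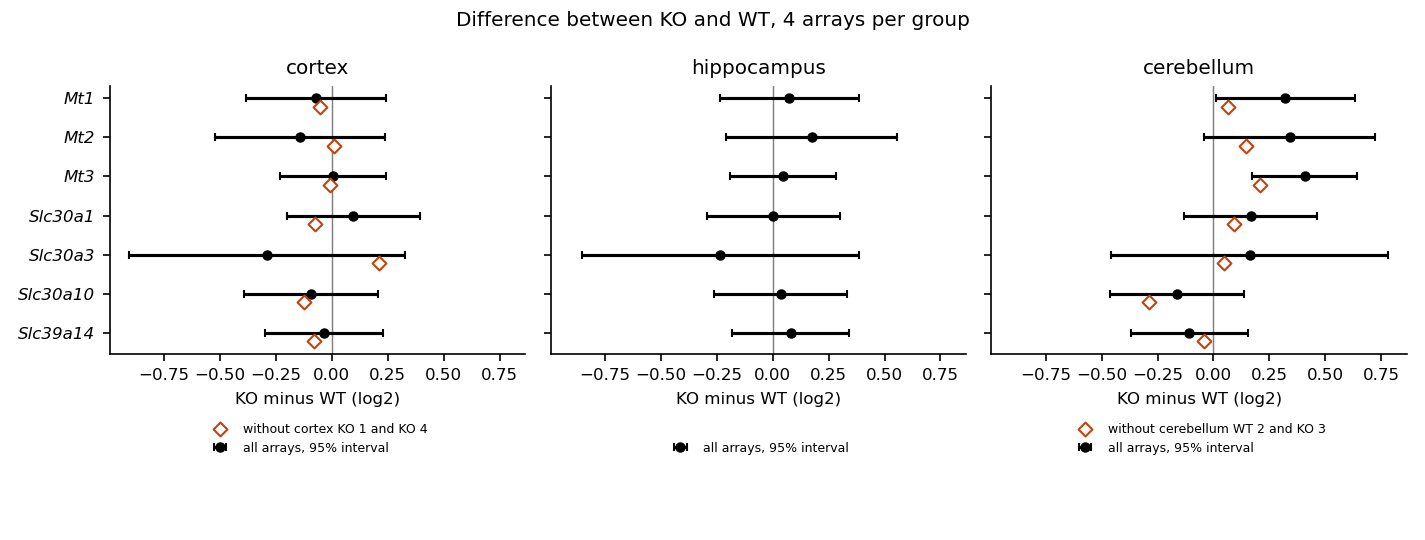
KO minus WT differences (x axes, log2) of the 7 genes (y axis) in each region, as filled circles with 95% intervals; open diamonds give the differences without cortex KO 1 and KO 4 (left) or without cerebellum WT 2 and KO 3 (right). In the cerebellum the 3 metallothioneins lie at 0.32 to 0.41 with all arrays and at 0.07 to 0.21 without those 2. That pair was chosen after seeing the data: WT 2 held the lowest WT value of each metallothionein and KO 3 the highest KO value of Mt3.

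In the hippocampus the 3 metallothioneins differed by 0.07 (Mt1), 0.18 (Mt2) and 0.05 (Mt3), with adjusted p of 1 for each. In the cortex they differed by -0.07 (Mt1), -0.14 (Mt2) and 0.01 (Mt3). Cortical Slc30a3 differed by -0.29 (SE 0.30, adjusted p = 0.877) with all arrays and by 0.21 without cortex KO 1 and KO 4, the arrays high in olfactory bulb markers. Those arrays also held the lowest KO values of Slc30a3 in the cortex (12.93 and 13.41), so leaving them out had to raise the KO mean. With 1 array left out the difference kept its sign (-0.48 to -0.04). The part of olfactory tissue was not tested. Slc30a3 in the hippocampus, where no array was high in olfactory bulb markers, differed by -0.23 (SE 0.30, adjusted p = 1), and by -0.36 without KO 4 to -0.06 without KO 2. Slc30a10 differed by -0.09 in cortex, 0.04 in hippocampus and -0.16 in cerebellum, Slc39a14 by -0.035, 0.08 and -0.11, and Slc30a1 by 0.10, 0.003 and 0.17.

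**Figure D4:**
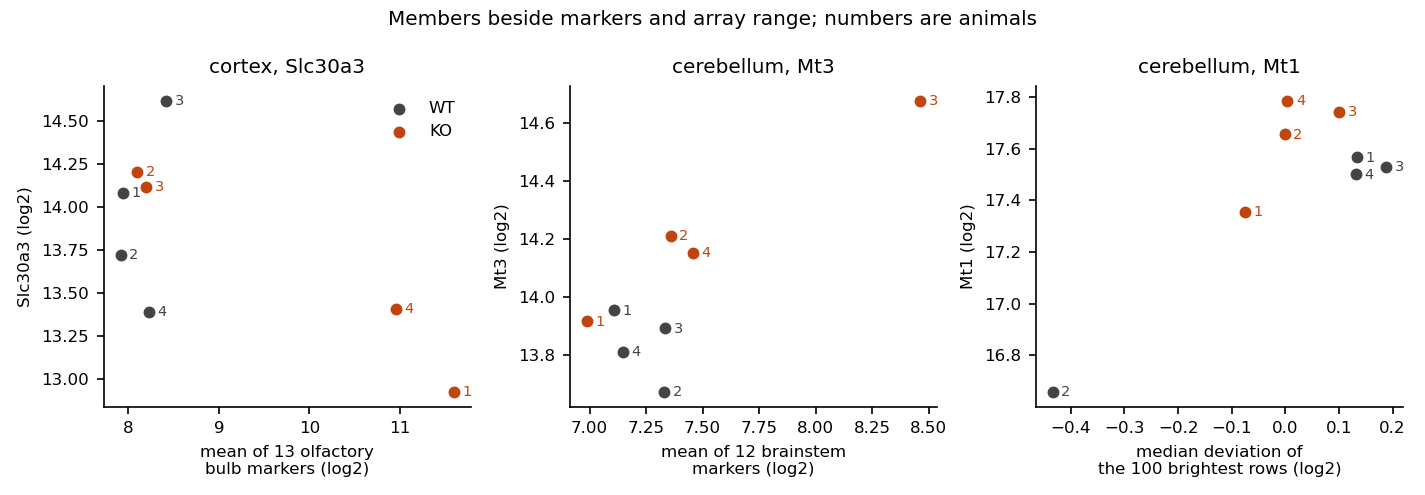
Values of single arrays (numbers are animals, WT grey, KO orange): Slc30a3 in the cortex against the mean of 13 olfactory bulb markers, Mt3 in the cerebellum against the mean of 12 brainstem markers, and Mt1 in the cerebellum against the median deviation of the array's 100 brightest rows from their group means (all log2). Cortex KO 1 and KO 4 at 11.60 and 10.96, cerebellum KO 3 at 8.46 and cerebellum WT 2 at -0.43 lie away from the other arrays on the x axes.

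Averaged over the regions with the animal as a random block, 0 of 7 members passed (0% of all rows). At an unadjusted p under 0.05 there was 1 of 7 (7.41% of all rows): Mt3, at 0.15 (SE 0.07, limma adjusted p = 0.661). Without cerebellum KO 3 the averaged difference in Mt3 was 0.10. The test of whether the KO effect differed between regions also passed for 0 of 7 members (0% of all rows), with 1 of 7 at an unadjusted p under 0.05 (5.09% of all rows), again Mt3 (limma adjusted p = 0.921). A difference of the Mt1, Mt2 or Mt3 response between cerebellum and forebrain was therefore not shown.

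Within a region, the deviations of Mt1 and Mt2 from their group means correlated positively, but in no region did this pass after adjustment. Pearson's r over the 8 arrays was 0.94 in the cortex (rho 0.79, exact permutation p = 0.0122 for r and 0.0451 for rho), 0.68 in the hippocampus (rho 0.60, exact permutation p = 0.125 and 0.188) and 0.96 in the cerebellum (rho 0.79, exact permutation p = 0.0295 and 0.0573). Without the 2 arrays farthest from the median of Mt1, r between Mt1 and Mt2 was 0.73, 0.50 and 0.46 in that order, so the cerebellar relation rests on those arrays. Cerebellum WT 2, whose brightest rows were low as a whole, enters the cerebellar value over 8 arrays. Among 63 pairs of members and regions none passed after adjustment. The pair of Mt1 and Mt2 had adjusted p of 0.383 for r in cortex, 0.606 in hippocampus and 0.465 in cerebellum. Between Mt1 and Mt3, r was 0.48, 0.03 and 0.55 in cortex, hippocampus and cerebellum, and -0.03, 0.29 and -0.03 without the 2 farthest arrays; whether these differ from the values for Mt1 and Mt2 was not tested. The smallest p of the 63 was that of Slc30a3 and Slc30a10 in the hippocampus (r = -0.88, rho -0.90, exact permutation p = 0.00868 for r, adjusted p = 0.383), where r was -0.93 without the 2 farthest arrays. The same pair had r of -0.07 in the cortex and -0.18 in the cerebellum.

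**Figure D5:**
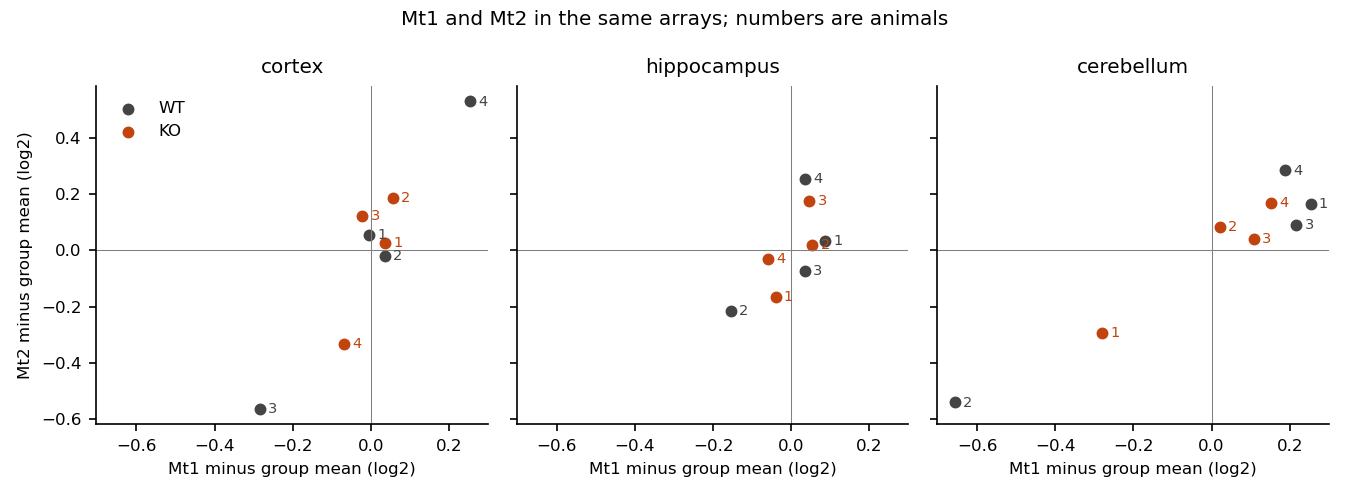
Deviation of Mt1 (x axes) and Mt2 (y axis) from the mean of their group (log2) in each region; numbers are animals, WT grey, KO orange. The points run from lower left to upper right, with cortex WT 3 at the lower left and WT 4 at the upper right, and with cerebellum WT 2 and then KO 1 at the lower left of the cerebellar arrays.

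The genes most like a member were listed by Pearson's r over all 24 arrays after group means were removed, as a description; the points share arrays, and 3 arrays come from each animal. For Mt2 the closest row of all was Mt1 (r = 0.85), followed by Paics (0.83) and Snx17 (0.80). For Mt1 they were Snx17 (0.92), Gapdh (0.88) and Dazap2 (0.87). Mt3 had Mdh2 (0.88), Pfn1 (0.86) and Atat1 (0.85), and Slc30a3 had Ramp1 (0.90), Ccdc3 (0.84) and Tesk1 (0.84). Gapdh, a glycolytic enzyme, and Mdh2, a mitochondrial one, are transcribed at high levels in most cells, and the low reading of bright rows on cerebellum WT 2 enters these values. The closest rows of Slc30a1 were Gadd45g (0.77), Sv2c (0.76) and Cacng4 (0.76), those of Slc30a10 Pgm1 (0.80), Ddx25 (0.77) and Gm1979 (0.77), and those of Slc39a14 Mroh6 (0.86), Olfr1022 (0.81) and Zbtb17 (0.80). With group means kept, which weights the regional pattern, Mt1 was closest to Tmem47 (0.87), Slc25a12 (0.86) and Mt2 (0.83), and Mt2 to Prxl2a (0.90), Vamp7 (0.89) and Hepacam (0.89), the last an astrocyte adhesion protein. Mt3 was then closest to Tmsb4x (0.97), Mmd2 (0.96) and Kctd4 (0.96), Slc30a3 to Cacnb1, Dbpht2 and Kctd16 (0.98 each), and Slc30a10 to Ebf4, Ptprg and Nell1 (0.86 each). Slc30a1 was closest to Ccdc106, Lrp12 and Gnb1 (0.75 each), and Slc39a14 to Clec16a (0.75), Mroh6 and Lipi (0.71 each).

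The other 29 listed genes of zinc, manganese, copper and iron handling, all measured, also showed no call between KO and WT: 0 of 29 in each region and on average. At an unadjusted p under 0.05 there was 1 of 29 in the cortex (7.45% of all rows), Slc30a6 (0.26, limma adjusted p = 0.628). There was none in the hippocampus (2.11% of all rows), in the cerebellum (9.5%) or on average (7.41%). Their median difference was -0.04 in cortex, 0.04 in hippocampus and 0.04 in cerebellum, beside -0.01, 0.01 and -0.004 over all rows. Mtf1, the metal sensor of the metallothionein promoters, differed by -0.19 in the cortex (adjusted p = 0.771), 0.13 in the hippocampus (adjusted p = 1) and -0.04 in the cerebellum (adjusted p = 0.92). Slc39a8, a manganese and zinc importer, differed by -0.17, 0.19 and 0.06, and Slc40a1, the iron exporter ferroportin, by -0.10, 0.07 and 0.25, none of them past the threshold. Others of smallest p were Tmem163 in the cortex (0.44), Slc39a13 in the hippocampus (0.20), Slc39a12 (0.36) and Slc39a7 (0.20) in the cerebellum, and Slc30a2 (-0.09), Slc31a1 (0.18) and Slc39a7 (0.08) on average.

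Between regions these 29 genes had calls on both sides of the shares for all rows, which are printed beside them. In WT 11 of 29 differed between cerebellum and cortex (8 higher, 3 lower in the cerebellum; 35.8% of all rows), 10 between cerebellum and hippocampus (7 higher, 3 lower; 34.9%) and 4 between hippocampus and cortex (3 higher in the hippocampus; 7.09%). In KO the counts were 13 (12 higher, 1 lower; 32.1% of all rows), 8 (5 higher, 3 lower; 31.3%) and 1 (lower; 6.86%). Tmem163, a zinc efflux protein of vesicles and plasma membrane, was the opposite of Slc30a3: the cerebellum exceeded the cortex by 2.47 in WT (SE 0.31, adjusted p = 3.39e-07) and by 1.90 in KO (SE 0.31, adjusted p = 2.14e-05), and the hippocampus by 2.80 and 2.60. Slc39a10, a zinc importer of the plasma membrane, was lower in the cerebellum than in the cortex, at -2.10 in WT (SE 0.16, adjusted p = 1.09e-10) and -1.75 in KO (SE 0.16, adjusted p = 4.18e-09), with the hippocampus between them. Slc39a6 was lower in the cerebellum than in the hippocampus, at -0.81 in WT and -0.72 in KO, as was Slc39a11, at -0.48 and -0.51. In the WT hippocampus Slc39a6 (0.60), Slc30a6 (0.52) and Slc39a11 (0.42) were higher and Slc39a10 (-0.81) was lower than in the cortex, and in KO Slc39a10 alone passed (-0.84). Slc39a13, a zinc carrier of the secretory pathway, was higher in the cerebellum than in the cortex by 0.66 in WT and 0.51 in KO, and than in the hippocampus by 0.67 and 0.36, and all 4 differences passed. Slc30a7, which loads zinc into the secretory pathway, also passed in all 4, at 0.64 in WT and 0.71 in KO against the cortex and at 0.49 and 0.39 against the hippocampus. The copper importer Slc31a1 was higher in the cerebellum than in the cortex in both genotypes (0.90 and 0.69, adjusted p = 0.00566 and 0.0384). Slc40a1 passed in WT (-0.43) and not in KO (-0.09, adjusted p = 0.67), as did Slc30a4 (-0.51, and -0.42 with adjusted p = 0.0609). Slc39a2 was higher in the WT cerebellum than in the hippocampus (0.67, adjusted p = 0.039), and the KO difference was 0.22 (adjusted p = 0.563). Slc39a12 passed for cerebellum against cortex in KO (0.73) and not in WT (0.17, adjusted p = 0.63), and Slc39a7 for cerebellum against hippocampus in KO (0.41) and not in WT (0.25, adjusted p = 0.082). Mtf1 differed between cerebellum and cortex by 0.21 in WT (adjusted p = 0.168) and 0.35 in KO (adjusted p = 0.0184), and between cerebellum and hippocampus by 0.32 in WT (adjusted p = 0.0294) and 0.14 in KO (adjusted p = 0.395). Whether these differences between regions differ by genotype is the test of the KO effect between regions, which passed for 0 of 29.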

How the data were processed

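Messenger RNA of 24 brain samples (6 groups of 4) had been measured on 1-colour arrays. The authors deposited log2 values that they had made with RMA, per the submitters' processing notes. Version, settings, log base and build of RMA are not stated there, and log2 was inferred from the range of the values (3.89 to 19.14). The labels name both biotin and Cy3 labelling, so the chemistry is not settled. RMA shrinks differences among dim probes, and the number of arrays limits the precision.

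Of 22206 rows, 19572 had a gene symbol and were tested without further normalization or filter. limma 3.58.1 in R 4.3.3 (lmFit, eBayes, 2-sided) was fitted with 1 mean per group (18 residual degrees of freedom, prior 6.9). Comparisons that join regions had the animal as a random block (consensus correlation 0.00646, reused in the fits that left out 1 array or weighted arrays). P-values were adjusted by Benjamini-Hochberg over 19572 rows at a threshold of 0.05. The fit without the animal block was tried on simulated independent noise, for KO against WT in each region and for hippocampus against cortex in WT. The fits with the animal block were not tried in this way. The same animal number within a genotype was taken as the same animal across regions, because the titles number animals. Over 24 such pairs of arrays the deviations from group means correlated at 0.04 in the median (-0.19 to 0.30). WT 1 and KO 1 are different animals.

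The genes and lists were chosen with earlier results of these data known. Named were the 7 genes in every comparison; of the other metal genes, the 3 of smallest p in each KO comparison, in each region comparison those among the 3 most different each way that passed, and Mtf1, Slc39a8 and Slc40a1; and the 3 rows most like each member. Alternatives were quantile normalization, removal of dim rows, array weights, a trended robust prior, other blocks, the 8 arrays of 1 region alone and arrays left out singly or together.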

Additional observations from a re-analysis of the deposited data

Results flagged for a closer look

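Of 42 groups of 4 arrays (7 genes in 6 groups), 1 held a value far from the others. Mt1 in the WT cerebellum was 16.66 in WT 2, and the next value was 17.50, a gap of 0.93 of the group's whole range. Chance alone marks about 1 in 20 groups. The brightest rows of this array were low as a group (median deviation -0.43), and with quantile normalization Mt1 in this array was 17.39. Its part in the low Mt1 value was not tested further.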

How the results depend on the processing

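The count of members passing between KO and WT stayed at 0 in each region, on average and for the difference between regions under every alternative run. Over all rows, leaving out 1 array gave at most 55 passing in the cortex (without KO 2; 34 without KO 3) and 1 on average (without cortex, hippocampus or cerebellum KO 4). The number of members that passed for cerebellum against cortex in WT was 5 with quantile normalization, beside 3 as reported. With 1 array left out it was 2 to 5. Over all rows, more passed with quantile normalization than the 7004 of the full fit. Fewer passed without cortex WT 3 or cerebellum WT 4 (2 members each), and also without cerebellum WT 3 (5 members). For hippocampus against cortex in KO the number of members was 1 without cortex KO 1, cortex KO 4 and cerebellum KO 3, beside 2. It was 3 with quantile normalization, with array weights and without cerebellum WT 2 and KO 3. In each of these alternatives, more of all rows passed than the 1342 of the full fit. With 1 array left out, 0 to 3 members passed, the 3 being without cerebellum WT 2. Fewer of all rows passed whichever of the compared hippocampal and cortical KO arrays was left out. For hippocampus against cortex in WT the number of members was 0 with any 1 of its arrays left out, beside 1. It was 1 with any other array left out. Whichever of its own arrays was left out, fewer of all rows passed than the 1387 of the full fit.

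Differences that turned sign were all ones that had not passed. Without cortex KO 1 and KO 4 the KO difference in the cortex was 0.011 for Mt2, -0.010 for Mt3, -0.075 for Slc30a1 and 0.21 for Slc30a3. Quantile normalization gave Mt3 -0.0051 in the cortex (-0.0026 with array weights), Slc30a1 -0.013 in the hippocampus, Mt1 0.12 for cerebellum against hippocampus in WT and Slc39a14 -0.0079 for cerebellum against cortex in KO. Without cerebellum KO 3, Slc30a3 was -0.092 in the cerebellum. Without cerebellum WT 2 and KO 3, an alternative chosen after seeing the data, Slc39a14 was 0.0014 on average and Mt1 0.043 for cerebellum against hippocampus in WT. Array weights gave Slc30a1 0.034 for hippocampus against cortex in WT and Slc39a14 0.014 for cerebellum against hippocampus in KO. Leaving out cortex KO 1, cortex KO 4 and cerebellum KO 3 gave Slc30a1 0.064 for hippocampus against cortex in KO. The cause was not tested.

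With 1 array left out, the KO difference in the cortex ranged from -0.17 to 0.014 for Mt1, -0.33 to 0.034 for Mt2, -0.018 to 0.028 for Mt3 and -0.10 to 0.033 for Slc39a14. In the hippocampus it ranged from -0.10 to 0.11 for Slc30a1, -0.044 to 0.12 for Slc30a10 and -0.023 to 0.16 for Slc39a14. In the cerebellum it ranged from -0.092 to 0.37 for Slc30a3, and on average from -0.055 to 0.0062 for Slc39a14. Between hippocampus and cortex in WT, Slc30a1 ranged from -0.12 to 0.083 and Slc39a14 from -0.014 to 0.12. Mt1 for cerebellum against hippocampus in WT ranged from -0.26 to 0.043, Slc39a14 for cerebellum against cortex in KO from -0.0049 to 0.15 and for cerebellum against hippocampus in KO from -0.18 to 0.0018.

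With the animal as a fixed replicate block, 4 members passed for cerebellum against cortex in WT (Slc30a1 joined at -0.34), 4 for cerebellum against hippocampus in WT (Slc30a1 at -0.32) and 4 in KO (Mt2 at 0.45, adjusted p = 0.0275). The label number as a block across genotypes left 0 members passing in each region, while 22 of all rows passed in the cerebellum, beside 0 without it, and 0 in the other regions. WT and KO arrays of the same number correlated at -0.04 in the median over 12 pairs (-0.24 to 0.30). Arrays taken as the same animal correlated at only 0.04 in the median, so such values cannot tell whether arrays of 1 number share more than it.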
